A study of Glycine max with 6 samples.

Results

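Abscisic acid (ABA) is the hormone with which plants close their stomata and adjust gene expression when water is short. It is made from carotenoids of the plastid. Zeaxanthin epoxidase, encoded by ABA1 in Arabidopsis, makes the epoxidised carotenoids from which ABA derives, and the epoxycarotenoid dioxygenases (NCED) then cleave such carotenoids in the step held to limit the rate of synthesis. The cleavage product is converted to abscisic aldehyde and finally oxidised to ABA by an aldehyde oxidase, while cytochrome P450 enzymes of the CYP707A family hydroxylate ABA and so begin its breakdown. The level of the hormone in a leaf depends on the balance between the NCED step and the CYP707A step.

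The 4 soybean genes described here are relatives of the enzymes of 3 of these steps and were picked by their identifiers from the 66184 probe sets of the array. Glyma15g40070 is similar to Arabidopsis NCED3, Glyma01g39310 to ABA1, Glyma01g35910 to NCED4 and Glyma01g35660 to CYP707A1, as given in the study's gene descriptions. The Arabidopsis genes NCED3, ABA1 and CYP707A1 act in ABA synthesis or breakdown, whereas NCED4, despite its name, encodes a carotenoid cleavage dioxygenase also known as CCD4, which acts on other carotenoids. The function of the soybean copies is inferred from similarity alone.

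The plants were soybean (Glycine max) of the cultivar Williams 82, grown 3 to a pot in a greenhouse. Drought-stressed plants received no water for 5 days once flowering had begun, by which time the soil held 5% moisture, whereas control plants were watered as usual, and in both groups the third trifoliate below the shoot was taken at full bloom (R2 stage). Its total RNA was hybridised to Affymetrix Soybean Gene 1.0 ST arrays, 3 for well-watered plants (numbers 1, 3 and 4) and 3 for drought-stressed plants (numbers 11, 12 and 13). The sources do not say whether plants given the same treatment stood in 1 pot, so treatment and pot may be confounded. The p-values rest on the spread between these plants, moderated by the spread of all probe sets. The series description also tells that more plants were sampled than were profiled, without giving how the profiled plants were chosen.

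Every value below is a log2 expression value relative to that probe set's own median of 6 arrays. A value of 0 is therefore the middle of the 6 arrays and not an absence of signal, and where the groups lie apart the pair of values nearest to 0 have the same size with opposite signs. Levels of different genes cannot be compared, and neither signal over background nor the leaf identity of the samples could be checked on this scale. The array medians over all probe sets lay between -0.107 (well-watered plant 1) and 0.132 (well-watered plant 3). The correlation between arrays of a group, across probe sets, lay between 0.431 and 0.639. These are correlations of centred values, from which the profile shared by all arrays is removed, and cannot be set beside correlations of uncentred values. A gene was called when the Benjamini-Hochberg adjusted p of limma over all 66184 probe sets was under 0.05 and the change was at least 2-fold. Each SE of a log2 fold change is that of the limma fit, which also draws on the spread of the other probe sets.

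Drought-stressed leaves had more transcript of the NCED3-like and the ABA1-like gene and less of the CYP707A1-like gene. Of the 4 genes, 2 were called higher, 1 was called lower and 1, the NCED4-like gene, was not called. Over the whole array 9.61% of probe sets were called, 4.98% higher and 4.63% lower. For each of the 4 genes the values of the treatments did not overlap, a separation found for 36.0% of all probe sets. In bulk leaf RNA, fewer cells of a type and less RNA per cell cannot be told apart.

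**Figure D1:**
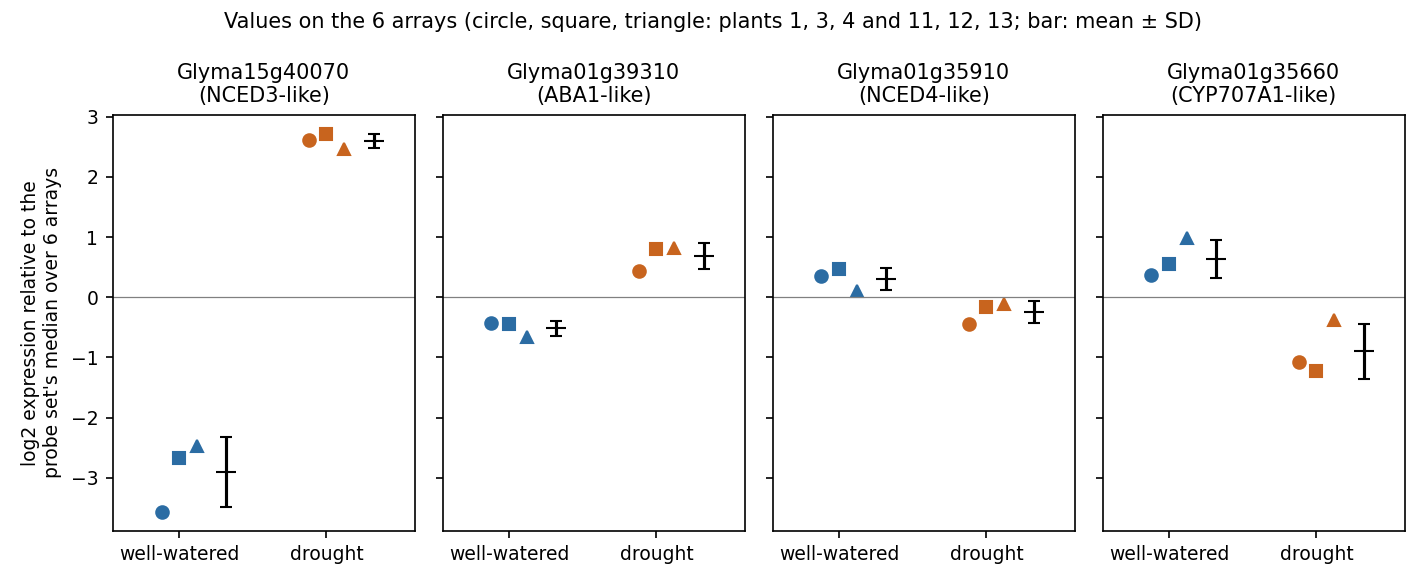
Log2 expression, relative to each probe set's median, of the 4 genes in well-watered (blue) and drought-stressed (orange) plants, with 1 symbol per plant and the mean ± SD of 3 plants beside them. The groups do not overlap in any of the 4 panels, and the distance between the nearest plants of the groups ranges from 0.21 for the NCED4-like gene to 4.94 for the NCED3-like gene.

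The NCED3-like gene Glyma15g40070, on chromosome 15, was by far the most changed of the 4. Its log2 values were -3.56, -2.68 and -2.47 in well-watered plants 1, 3 and 4, and 2.62, 2.71 and 2.47 in drought-stressed plants 11, 12 and 13. The drought-stressed plants differed little among themselves, whereas well-watered plant 1 lay below the other well-watered plants. The group means were -2.90 ± 0.58 and 2.60 ± 0.12 (SD, n = 3 per group), which is a log2 fold change of 5.50 ± 0.26 (SE) and a rise of 45.4-fold, with a 95% interval from 30.2-fold to 68.2-fold (limma, adjusted p = 2.28e-06). Ranked by fold change this was the rise with rank 11 among the 66184 probe sets. Leaving out well-watered plant 1 gave 5.17, the lowest log2 fold change with any array left out.

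The ABA1-like gene Glyma01g39310, on chromosome 1, rose less. Its log2 values were -0.43, -0.45 and -0.66 in well-watered plants 1, 3 and 4, and 0.43, 0.80 and 0.82 in drought-stressed plants 11, 12 and 13. Drought-stressed plant 11 was the lowest of its group and still 0.87 above the highest well-watered plant. The log2 fold change was 1.20 ± 0.18 (SE, n = 3 per group) or 2.29-fold, with a 95% interval from 1.75-fold to 3.01-fold (limma, adjusted p = 0.00101). Of all probe sets, 6.95% had a larger change in either direction. In Arabidopsis the epoxidase also serves the xanthophyll cycle of the chloroplast, which protects photosynthesis against excess light, so its transcript is not that of an ABA gene alone.

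The CYP707A1-like gene Glyma01g35660, also on chromosome 1, was the only one of the 4 called lower. Its log2 values were 0.38, 0.56 and 0.98 in well-watered plants 1, 3 and 4, and -1.08, -1.23 and -0.38 in drought-stressed plants 11, 12 and 13. Drought-stressed plant 13 stood closest to the well-watered plants, and the spread in both groups was wide, with SDs of 0.31 and 0.46. The log2 fold change was -1.53 ± 0.25 (SE, n = 3 plants each), which makes the transcript 2.89-fold higher in well-watered than in drought-stressed leaves (limma, adjusted p = 0.00185), and 4.04% of all probe sets had a larger change. Without drought-stressed plant 13 the log2 fold change was -1.79. The methods' t-test, which takes no account of the spread of other probe sets, gave an adjusted p of 0.0602 and did not call it.

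The NCED4-like gene Glyma01g35910 showed the smallest difference. Its log2 values were 0.35, 0.46 and 0.11 in well-watered plants 1, 3 and 4, and -0.45, -0.17 and -0.11 in drought-stressed plants 11, 12 and 13. All drought-stressed plants were lower than all well-watered plants, but well-watered plant 4 and drought-stressed plant 13 were only 0.21 apart. The log2 fold change was -0.55 ± 0.18 (SE, n = 3 per group; limma, adjusted p = 0.0570), and its 95% interval ran from -0.94 to -0.15, so that a change of 2-fold in either direction lay outside it. With the array medians subtracted the adjusted p was 0.0386 and with quantile normalization 0.0329, at log2 fold changes of -0.56 and -0.57, which did not reach the 2-fold criterion either.

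**Figure D2:**
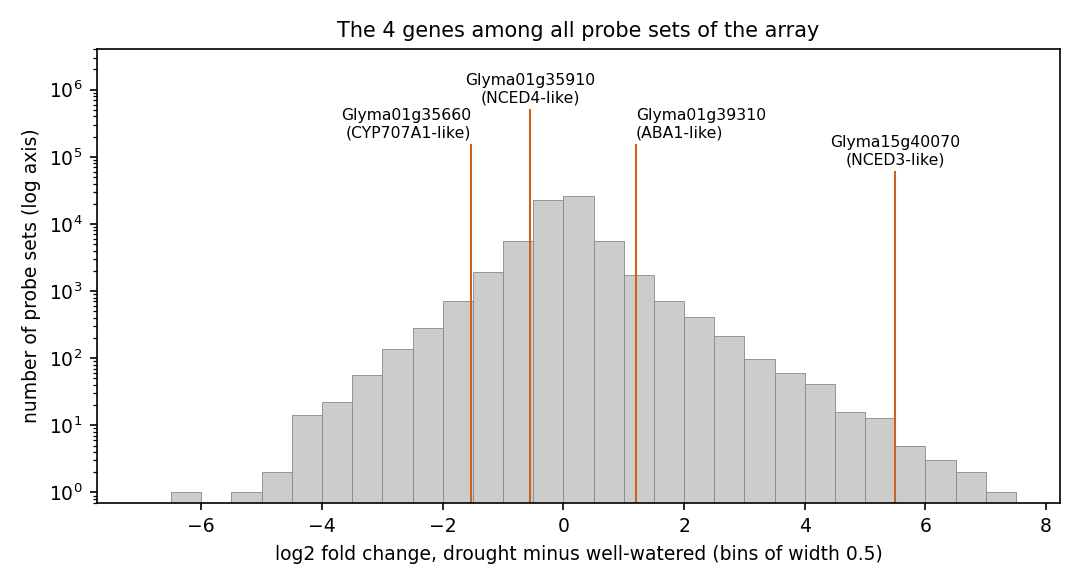
Number of probe sets (log axis) by log2 fold change, drought minus well-watered, in bins of 0.5 for all 66184 probe sets, with a vertical line at each of the 4 genes. The NCED3-like gene stands at 5.50 in the thin upper tail, the ABA1-like and CYP707A1-like genes at 1.20 and -1.53 on the shoulders, and the NCED4-like gene at -0.55 near the centre.

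The opposite shifts of the NCED3-like and CYP707A1-like genes can be read on each array as the log2 value of the former minus that of the latter. This difference was -3.94, -3.23 and -3.45 in well-watered plants 1, 3 and 4, and 3.69, 3.94 and 2.85 in drought-stressed plants 11, 12 and 13. It was positive in each drought-stressed plant and negative in each well-watered plant, and its mean moved by 7.04 on the log2 scale, or 131-fold, of which the larger share came from the NCED3-like gene. Since each probe set is centred on its own median, only the shift between arrays and not the sign carries information. The shift was not tested, because it combines genes that were chosen with their results known. No other CYP707A relative is described here, so the difference covers this pair of genes and not the NCED and CYP707A steps as a whole.

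Soybean carries several copies of most genes of the pathway, and the copies in the study's ABA list allow the 4 genes to be set beside their relatives. The study drew that list from the response of other plants to drought at the late vegetative V6 stage, with 2-fold as the minimum, so it leaves out copies that did not respond there. Of the 4 genes it holds the NCED3-like and the NCED4-like gene, while the ABA1-like and CYP707A1-like genes are not on it. Apart from these it holds 5 genes of ABA synthesis, of which 3 were called higher, none lower and 2 were not called, where 4.98% of all probe sets were called higher and 4.63% lower. Their median log2 fold change was 1.07 against 0.022 over all probe sets. Together with the 4 genes above, 5 of 9 were called higher, 1 was called lower and 3 were not called, against the same 4.98% and 4.63% of the array. The 4 genes were chosen with their results known and the others for a response at V6. The comparison with the array is therefore no test of the pathway.

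Of the dioxygenase relatives, Glyma08g18800, similar to Arabidopsis NCED5, was also called higher. Its log2 values were -2.35, -2.14 and -2.24 in well-watered plants 1, 3 and 4, and 2.17, 2.22 and 2.14 in drought-stressed plants 11, 12 and 13. Within each group its values were closer together than those of Glyma15g40070. Its log2 fold change was 4.42 ± 0.16 (SE, n = 3 plants each), a rise of 21.5-fold (limma, adjusted p = 4.24e-07). On each array Glyma15g40070 minus Glyma08g18800 lay between -1.21 and -0.23 in well-watered plants and between 0.33 and 0.49 in drought-stressed plants, and well-watered plant 1 held the lowest value. The difference between their rises, 1.08 on the log2 scale, was not tested.

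The copies similar to ABA1 ranged from a large rise to no call. Glyma11g05960 stood at -2.18, -1.42 and -1.54 in well-watered plants 1, 3 and 4, and at 1.42, 2.18 and 1.95 in drought-stressed plants 11, 12 and 13. Its log2 fold change was 3.57 ± 0.26 (SE, n = 3 plants each), a rise of 11.8-fold (limma, adjusted p = 1.44e-05). Glyma17g20020 stood at -0.08, 0.45 and -0.04 in well-watered plants and at -0.06, 0.04 and 0.15 in drought-stressed plants, so that the groups overlapped. Its log2 fold change was -0.065 ± 0.19 with a 95% interval from -0.49 to 0.36 (limma, adjusted p = 0.875), and it was 0.10 without well-watered plant 3. The rise of Glyma01g39310 thus lay between these copies. Glyma11g05960 minus Glyma01g39310 was -1.75, -0.97 and -0.88 in the well-watered plants and 0.99, 1.39 and 1.12 in the drought-stressed plants, and Glyma01g39310 minus Glyma17g20020 was -0.35, -0.90 and -0.61 against 0.49, 0.76 and 0.67. Neither difference was tested. As Glyma17g20020 hardly changed, the second difference largely repeats the rise of Glyma01g39310.

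**Figure D3:**
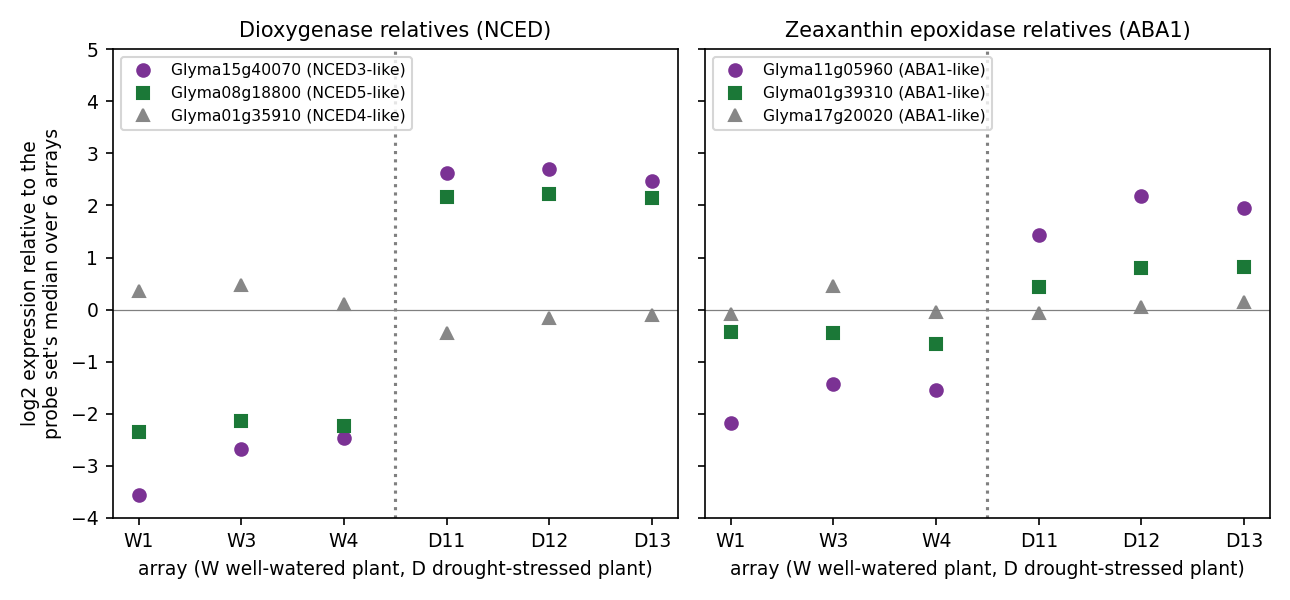
Log2 expression, relative to the median of each probe set, on each of the 6 arrays (W, well-watered plant; D, drought-stressed plant; the dotted line parts the groups) for 3 relatives of the NCED genes (left) and 3 relatives of ABA1 (right). The NCED3-like and NCED5-like genes stand above 2 on all drought arrays and below -2 on all well-watered arrays while the NCED4-like gene stays between -0.45 and 0.46; among the ABA1 relatives Glyma11g05960 moves most and Glyma17g20020 does not part the groups.

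The genes of the last step and of its cofactor had fold changes near 2. Glyma14g04950, similar to the abscisic aldehyde oxidase AAO3, had log2 values of -0.42, -0.53 and -0.31 in well-watered plants 1, 3 and 4, and of 0.31, 0.78 and 0.86 in drought-stressed plants 11, 12 and 13. Its log2 fold change was 1.07 ± 0.19 (SE, n = 3 plants each; limma, adjusted p = 0.00285), a call that was lost at 0.97 without drought-stressed plant 13, at 1.00 with quantile normalization and at 0.99 with array weights. Glyma09g00460, similar to ABA3, whose product activates the molybdenum cofactor that the aldehyde oxidase needs, had a log2 fold change of 0.99 ± 0.15 (limma, adjusted p = 0.00130) and missed the 2-fold criterion at 1.99-fold. Its values were tight, between -0.54 and -0.45 in well-watered plants and between 0.45 and 0.55 in drought-stressed plants. It was called at 1.01 without well-watered plant 3 and at 1.02 without drought-stressed plant 11.

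**Figure D4:**
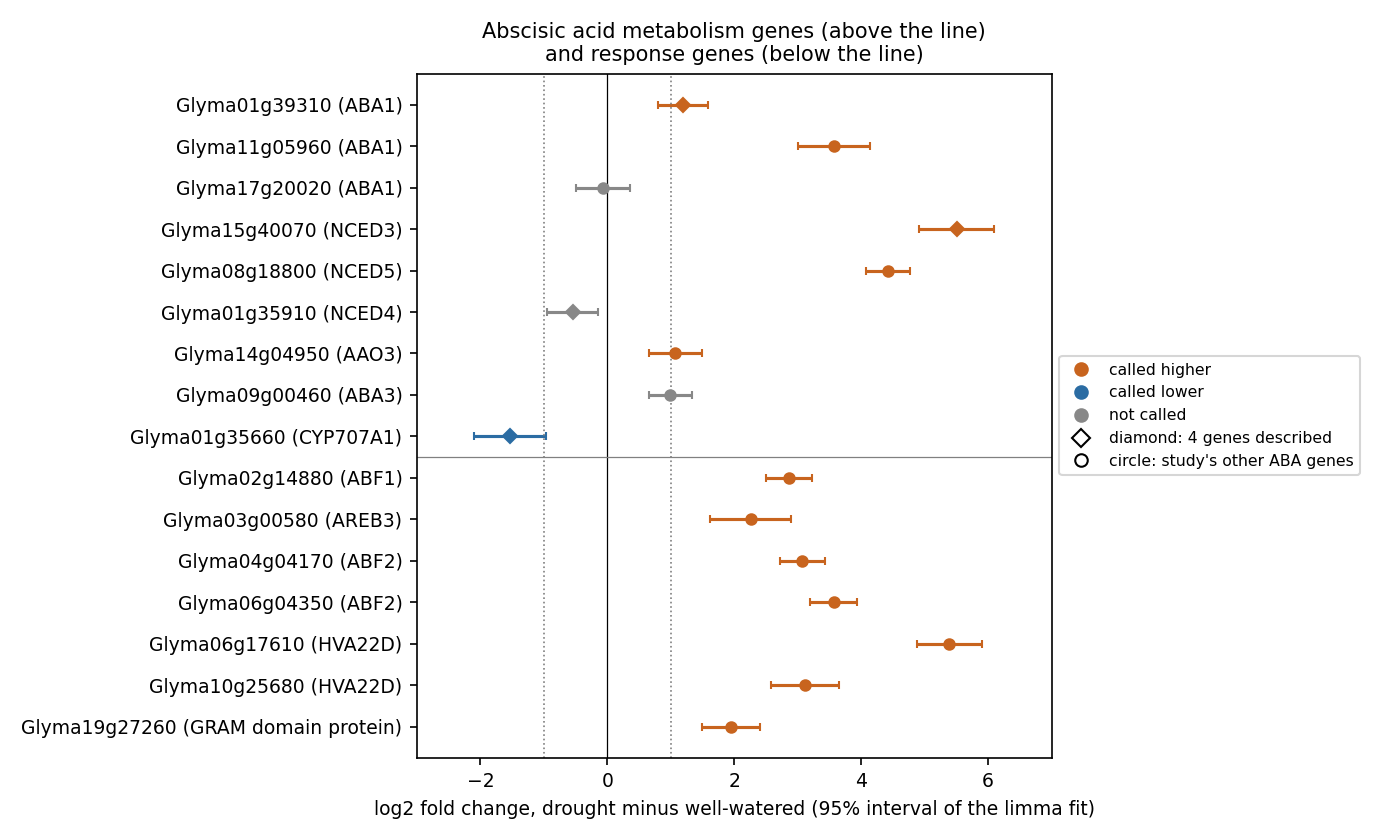
Log2 fold change, drought minus well-watered, with the 95% interval of the limma fit (n = 3 per group) for the 4 genes (diamonds) and the other genes of the study's ABA list (circles), ABA metabolism and the NCED4-like gene above the horizontal line and response below it; dotted lines mark a change of 2-fold. The points run from -1.53 for the CYP707A1-like gene to 5.50 for the NCED3-like gene, and 7 of 7 response genes lie above 1.

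The remaining 7 genes of the study's ABA list are relatives of genes that act downstream of the hormone, and each of them was called higher, as were 4.98% of all probe sets, with a median log2 fold change of 3.07. They were likewise drawn from genes responsive at V6. The range went from Glyma19g27260, similar to a GRAM domain protein described as related to ABA-responsive proteins, at 1.95 ± 0.21 (SE, n = 3 per group), to Glyma06g17610, similar to the ABA-responsive gene HVA22D, at 5.39 ± 0.23. Relatives of the bZIP factors of the AREB/ABF group, which in Arabidopsis switch on ABA-dependent genes, were among them. Their log2 fold changes ran from 2.26 to 3.57, the highest being that of Glyma06g04350, similar to ABF2, at 3.57 ± 0.17.

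The genes whose pattern over the 6 arrays was most like that of each gene were sought among 1713 others with a stated Arabidopsis relative. These came from the study's list of hormone-related genes and from the gene descriptions at hand, which cover chromosome 1 only, and most lay on chromosome 1. Candidates on other chromosomes were thus all hormone-related genes, listed for a response to drought at V6. That choice favours hormone genes as matches from those chromosomes. With 6 arrays in 2 groups the correlation mainly follows the treatment, and it takes no account of the size of a change. For the NCED3-like gene the closest were Glyma10g25680, similar to HVA22D (Pearson r = 0.996), and the ABA3-like gene Glyma09g00460 (r = 0.995), and over all probe sets 78 and 90 had an r at least as high. For the ABA1-like gene they were Glyma01g24510, similar to a protein kinase (r = 0.997), and Glyma01g29580, similar to a leucine-rich repeat protein (r = 0.992). Glyma01g24510 was not called, at a log2 fold change of 0.56, and Glyma01g29580 was called higher, at 1.59. Over all probe sets 16 and 115 had an r at least as high. For the NCED4-like gene they were Glyma01g20780, similar to an agenet domain protein (r = 0.986), and Glyma01g07120, similar to the ureide permease UPS2 (r = 0.982), which like the NCED4-like gene were not called. Here 34 and 56 of all probe sets had an r at least as high. For the CYP707A1-like gene they were Glyma01g01520, similar to a pentatricopeptide repeat protein (r = 0.991), and Glyma01g42300, similar to AT4G11990 (r = 0.989), both called lower, at log2 fold changes of -1.12 and -1.02. An r at least as high was found for 16 and 19 of all probe sets. The call of Glyma01g01520 was lost without drought-stressed plant 12, at -0.96, and with the methods' t-test, and that of Glyma01g42300 at -0.99 without well-watered plant 4, at -0.97 without drought-stressed plant 11 and at -0.90 without drought-stressed plant 12. In these genes as in the CYP707A1-like gene, drought-stressed plant 13 was the least lowered, at -0.23 and -0.28, a likeness that the choice by correlation favours.

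**Figure D5:**
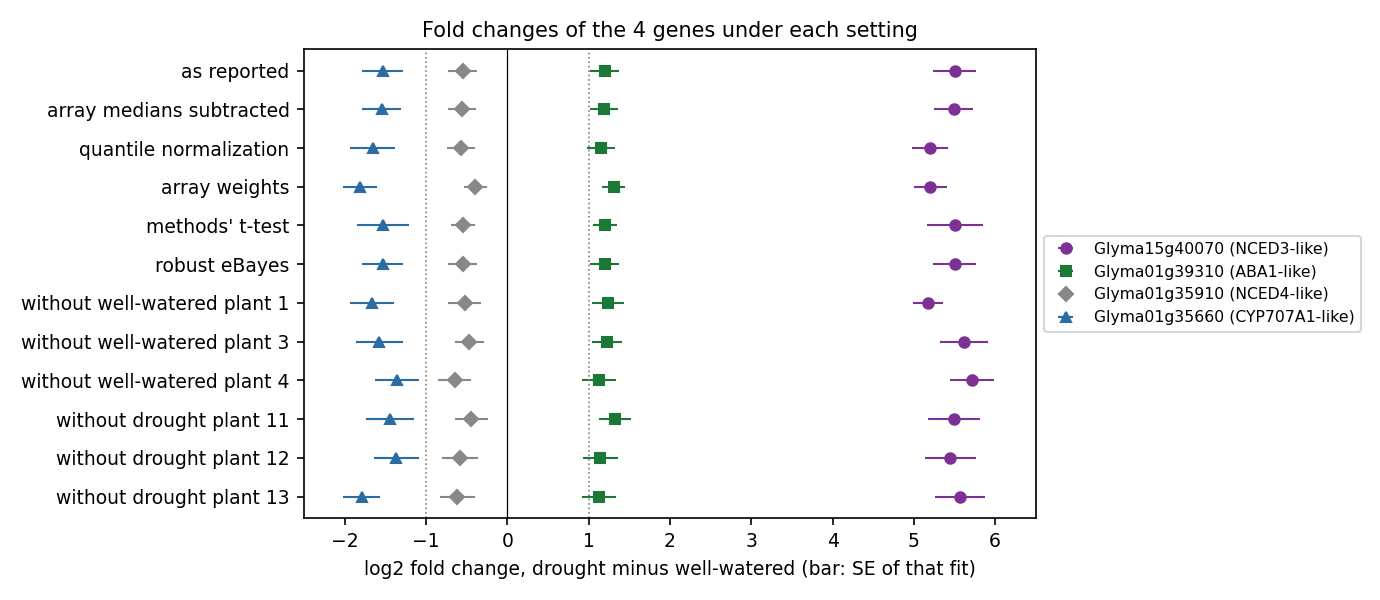
Log2 fold change, drought minus well-watered, of the 4 genes as reported, under each alternative processing that alters the fit and with each array left out, with the SE of that fit; dotted lines mark a change of 2-fold. The NCED3-like gene stays between 5.17 and 5.72, the ABA1-like gene between 1.13 and 1.32, the NCED4-like gene between -0.65 and -0.39 and the CYP707A1-like gene between -1.81 and -1.36.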

How the data were processed

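Total RNA of leaves from 6 plants was hybridised to Affymetrix Soybean Gene 1.0 ST arrays by the authors, who obtained gene-level RMA values, not yet normalized, from Affymetrix Expression Console and scaled the log2 values in GeneSpring to the 75th percentile. The submitters' processing notes name RMA and Expression Console without versions. The deposited log2 values are also centred on the median of each probe set (the largest absolute row median was 5e-07), a step read from the values. There were no missing values. The deposited table of the authors' own comparison holds a signed fold (drought over well-watered) and p-values for each gene, and only its pairing of probe sets with Glyma1 identifiers was used. Precision is limited by the number of arrays, 3 per group.

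Groups came from the labels. Values were used as deposited. The 3 drought and 3 well-watered arrays entered a limma 3.58.1 fit (R 4.3.3, lmFit and eBayes) with treatment as its sole term, and p-values were adjusted by Benjamini-Hochberg over 66184 probe sets. Each SE of a fold change and each 95% interval is that of the fit, in which the spread of a gene is moderated by that of all probe sets. Figures were drawn with matplotlib 3.10.9 in Python 3.11.15.

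The 4 genes, the lists and the rules were chosen with earlier results of these data known. Named were the 4 genes, the 5 other synthesis genes of the study's ABA list and the response genes with largest and smallest change. Also named were a pair of carotenoid genes of chromosome 1 and the 2 genes most correlated with each of the 4. The latter were sought among 1714 genes of the study's hormone list and of the chromosome 1 descriptions at hand. Glyma06g04350 and the range of the AREB/ABF group were added after their values were seen, and Glyma06g04350 is not among the named genes compared under the alternatives. On the array 214 probe sets had values identical to those of another, none of the 4 genes among them. The RefSeq table for Glycine_max_v4.0, with 59048 genes, holds none of the array's identifiers, so no coordinates or sequences are given.

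The alternatives were subtracting array medians, quantile normalization, array weights, robust eBayes, the methods' t-test, no fold criterion and leaving out each array. A filter on dim probe sets and an intensity trend were not run, because centring removes absolute signal.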

Additional observations from a re-analysis of the deposited data

How the results depend on the processing

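No paired analysis was possible because well-watered and drought-stressed plants carry different numbers. The methods' t-test, robust eBayes and dropping the fold criterion leave every log2 fold change as it was, so no sign could change under them. Of 48 values of the 4 genes under the alternatives, 47 stayed on the same side of the criteria, none changed sign and 1 no longer passed, the CYP707A1-like gene with the methods' t-test, at a log2 fold change of -1.53. Its adjusted p ranged from 0.000113 to 0.0602 over the alternatives. With an array left out, the log2 fold change of this gene ranged from -1.79 to -1.36, and 3 of the 4 genes were called each time. Without the fold criterion 13172 probe sets passed against 6360 with it, the methods' t-test gave 4360 (2319 higher and 2041 lower), and leaving out an array gave 5911 to 6760. Among 192 values of 16 other named genes, 174 stayed on the same side, 8 no longer passed, 5 newly passed and 5 changed sign. The sign changes were those of Glyma17g20020, at 0.053 with array weights and from -0.16 to 0.10 with an array left out, and of Glyma01g43610, from -0.23 to 0.10 with an array left out. Array weights ran from 0.338 for well-watered plant 3 to 3.96 for well-watered plant 4, so that setting leans on 1 control plant. The number of other synthesis genes called ranged from 2 to 4. Signal over background is not known for these values.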

Other observations

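The gene descriptions at hand name a pair of further carotenoid genes, both on chromosome 1, and neither was called. Glyma01g14170, similar to CCD7, a dioxygenase that in Arabidopsis cleaves carotenoids for strigolactone synthesis, had log2 values of -0.96, -0.74 and 0.48 in well-watered plants 1, 3 and 4 and of -0.35, 0.35 and 0.76 in drought-stressed plants 11, 12 and 13. The groups overlapped, and the log2 fold change was 0.66 ± 0.38 (SE, n = 3 plants each; limma, adjusted p = 0.290). Among the alternatives, only leaving out well-watered plant 4 gave a call, at 1.10, while the log2 fold change was 0.38 without well-watered plant 1, 0.40 without drought-stressed plant 13 and 0.0018 with array weights. Glyma01g43610, similar to CYP97B3 of a family that holds carotenoid hydroxylases, had a log2 fold change of -0.034 ± 0.20 (limma, adjusted p = 0.941).

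The CYP707A1-like and the NCED4-like gene are separated on chromosome 1 by 23 array identifiers, taken in the order of their numbers. Of the 3 identifiers on either side of each of the 4 genes, 24 in all, 1 was called higher, 2 were called lower and 21 were not called. The share called, 12.5%, compares with 9.61% over all probe sets. The highest log2 fold change among these neighbours was 1.98, beside the NCED3-like gene, and the lowest was -1.52, beside the CYP707A1-like gene.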
